A study of Mus musculus with 26 samples.

Results

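The 10 genes described here belong to pathways that regulate inflammatory signalling after it has begun: the mRNA decay factors Zfp36, Zfp36l1 and Zfp36l2, the MAP kinase phosphatases Dusp1, Dusp2 and Dusp5, and the NF-kB feedback genes Nfkbia, Nfkbiz, Tnfaip3 and Nfkb2. They were chosen by symbol, with earlier results of these data known, so counts over them are descriptive. All 10 were present among the 16322 genes of the tumour files and the 14131 genes of the sorted-cell files. RNA had been sequenced from KPC mice, a strain that by convention carries conditional alleles switched on in the pancreas by a Cre recombinase under the Pdx1 promoter, and that develops pancreatic ductal adenocarcinoma. The labels name the strain only, and give neither alleles nor ages. Treated mice had received GS9820, which blocks p110δ, the PI3 kinase catalytic protein encoded by Pik3cd, for 14 days. The other mice had received vehicle, for which no day is labelled.

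The data comprise 26 libraries. Whole tumours gave 5 libraries of GS9820-treated mice and 7 of vehicle mice. Cells sorted from the spleen of tumour-bearing mice gave 4 PMN (neutrophil) libraries of treated mice and 3 of vehicle mice, and 4 monocyte libraries of treated mice and 3 of vehicle mice. The titles add "low" to every PMN library and "high" to every monocyte library, without saying what this marks. Whatever it marks cannot be told apart from cell type. The labels do not say whether libraries came from separate animals, so p-values measure the spread between these libraries, which may in part be technical. The deposited values are log2 values per gene length, called log2 RPKM by their header. Tumours and sorted cells were normalized separately, each to nearly 1 common distribution, so levels are compared only within a set and sequencing depth is unknown.

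An inflammatory stimulus acts on myeloid cells largely through NF-kB and the MAP kinases, and both pathways switch on genes that end their own signal. Zfp36 proteins bind AU-rich elements in mRNAs of cytokines and other short-lived transcripts and recruit deadenylases. Dusp proteins remove the activating phosphates from ERK, p38 and JNK in the cytoplasm or nucleus, and the product of Nfkbia (IκBα) holds NF-kB dimers outside the nucleus. In neutrophils and monocytes these genes are known as fast responders to bacterial products, cytokines, glucocorticoids and cell handling.

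Start-site regions are shown for 5 members because they hold different short elements that are known to mediate such induction. The sequences are those of RefSeq (GRCm38.p6), in the direction of transcription, and cover the 250 bases before an annotated start site. Capitals mark a cyclic AMP response element (CRE, TGACGTCA), its shorter form TGACG, a CArG box or an NF-kB consensus, on either strand.
Dusp1: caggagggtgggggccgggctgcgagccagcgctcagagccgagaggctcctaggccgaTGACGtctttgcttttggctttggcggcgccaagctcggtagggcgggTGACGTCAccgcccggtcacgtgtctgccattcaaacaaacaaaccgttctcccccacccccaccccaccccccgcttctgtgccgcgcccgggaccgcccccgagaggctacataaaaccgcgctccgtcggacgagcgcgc
Zfp36: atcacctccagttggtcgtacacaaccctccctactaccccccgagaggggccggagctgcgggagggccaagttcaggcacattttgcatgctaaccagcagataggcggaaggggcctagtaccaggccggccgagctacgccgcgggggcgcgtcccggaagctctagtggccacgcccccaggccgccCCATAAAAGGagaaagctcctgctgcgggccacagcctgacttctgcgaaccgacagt
Dusp5: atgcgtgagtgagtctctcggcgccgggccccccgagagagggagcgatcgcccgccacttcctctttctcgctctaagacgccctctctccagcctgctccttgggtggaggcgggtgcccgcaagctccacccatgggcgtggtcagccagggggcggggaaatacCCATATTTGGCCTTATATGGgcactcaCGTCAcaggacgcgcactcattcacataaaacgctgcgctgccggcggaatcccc
Nfkbia: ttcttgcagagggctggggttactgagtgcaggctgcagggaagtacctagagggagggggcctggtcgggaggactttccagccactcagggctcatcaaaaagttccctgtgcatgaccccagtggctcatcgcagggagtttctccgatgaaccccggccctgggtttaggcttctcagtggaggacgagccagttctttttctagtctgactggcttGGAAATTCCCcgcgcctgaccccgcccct
Tnfaip3: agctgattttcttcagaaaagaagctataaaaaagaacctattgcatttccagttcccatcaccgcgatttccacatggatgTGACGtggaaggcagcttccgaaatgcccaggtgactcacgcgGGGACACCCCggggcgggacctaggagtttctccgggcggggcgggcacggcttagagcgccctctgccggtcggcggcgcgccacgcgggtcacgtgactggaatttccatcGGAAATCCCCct

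These stretches lie at chr17:26508473-26508722 (Dusp1, minus strand), chr7:28379229-28379478 (Zfp36, minus strand), chr19:53528895-53529144 (Dusp5, plus strand), chr12:55492648-55492897 (Nfkbia, minus strand) and chr10:19015411-19015660 (Tnfaip3, minus strand). The table held 11 such windows for 8 of the 10 members, each reaching 50 bases past the start site, and none for Zfp36l2 or Nfkbiz. Within the full windows, the whole CRE was found in that of Dusp1 alone among the members, against 1.79% of all 32851 windows of this length. A CArG box was found in Zfp36 and Dusp5 (1.63% of all windows), and Dusp5 held a pair of them side by side. The NF-kB consensus was found in Nfkbia, Tnfaip3 and Nfkb2 (4.51% of all windows), and the shorter TGACG in Dusp1, Dusp2, Dusp5, Nfkb2 and Tnfaip3 (20.8%). The whole CRE contains TGACG, so these searches overlap. Of the other motifs searched on both strands, TGANTCA (AP-1) was found in Nfkb2, Tnfaip3 and Zfp36l1 (7.81%), TATAAA in Nfkbia, Tnfaip3 and Zfp36l1 (13.6%), and TTNNGCAA (C/EBP) in 0 members (10.8%). A match is a run of letters and does not show that a factor binds there.

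Sorted PMN had far higher values of Dusp1, Dusp5, Zfp36l1, Nfkbiz and Zfp36 than sorted monocytes, in treated and in vehicle mice alike. Nfkbia, Nfkb2, Tnfaip3 and Zfp36l2 did not pass the test in either treatment. In treated mice 5 of 10 members rose in PMN and 0 fell (limma, Benjamini-Hochberg adjusted p under 0.05 over 13968 genes). Of all genes tested there, 69.6% passed in either direction and 32.1% were higher in PMN. In vehicle mice 6 of 10 members rose, the sixth being Dusp2, and 0 fell, where 60.1% of all genes passed in either direction and 27.2% were higher in PMN. The median difference over the members was 1.35 (log2, PMN minus monocytes) in treated and 1.86 in vehicle mice, against −0.07 over all genes tested in each. PMN and monocytes are different cell types that differ in most of their genes, so a call here is common. Sorted-cell libraries also came from either of 2 kits, with the kit of each library not given. A part of the kit in these gaps therefore cannot be told apart from cell type. For 5 members no PMN value overlapped any monocyte value of the same treatment, in this direction, as was so of 32.1% of all genes in treated and 27.1% in vehicle mice.

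Among the MAP kinase phosphatases, Dusp1, a nuclear phosphatase of p38, JNK and ERK, showed the widest gap of all members. Its log2 values in PMN were 9.53, 10.36, 9.49 and 10.22 in treated and 9.96, 10.33 and 10.70 in vehicle mice. In monocytes they were 5.18, 4.12, 4.02 and 4.24 in treated and 4.48, 4.31 and 6.03 in vehicle mice. Every PMN library thus lay above every monocyte library, and the highest monocyte value belonged to vehicle library 3. PMN exceeded monocytes by 5.51 ± 0.38 (SE) in treated mice (45.6-fold, adjusted p = 1.426e-07) and by 5.39 ± 0.44 in vehicle mice (42.0-fold, adjusted p = 1.433e-06). By mean level Dusp1 stood at the 98.5th percentile of all genes in PMN of treated mice and the 99th percentile in PMN of vehicle mice, against the 47.4th and 55.9th in monocytes of treated and vehicle mice. The annotated Dusp1 gene overlaps the pseudogene Gm8225 and part of Ergic1, both measured and on the opposite strand. Their part in the Dusp1 values was not tested.

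Dusp5, a nuclear phosphatase that acts on ERK, had values of 5.92, 4.89, 5.59 and 5.77 in PMN of treated and 5.64, 5.46 and 5.01 in PMN of vehicle mice. Its monocyte values were 2.14, 2.02, 1.77 and 1.90 in treated and 2.10, 0.52 and 2.38 in vehicle mice. The cell types did not overlap, and vehicle library 2 was the lowest monocyte library. The gap was 3.58 ± 0.35 in treated mice (12-fold, adjusted p = 2.112e-06) and 3.70 ± 0.40 in vehicle mice (13-fold, adjusted p = 1.015e-05).

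Dusp2, another nuclear phosphatase of ERK and p38 that is best known from activated leukocytes, had values of 4.66, 4.48, 4.22 and 4.78 in PMN of treated and 5.35, 4.07 and 4.77 in PMN of vehicle mice. In monocytes it had 3.38, 4.13, 3.66 and 4.71 in treated and 3.65, 2.03 and 4.27 in vehicle mice. The cell types overlapped in both treatments. The difference was 0.57 ± 0.44 in treated mice (adjusted p = 0.2618) and 1.41 ± 0.51 in vehicle mice (adjusted p = 0.02833), and the difference between these 2 values did not pass its own test (−0.85 ± 0.67, adjusted p = 0.9998). In vehicle mice the call was lost without monocyte library 2, where the difference was 0.77 (adjusted p = 0.127), without PMN library 1 or 3 (adjusted p = 0.110 and 0.0646), and when only these 2 groups were fitted (adjusted p = 0.108).

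Dusp1 made up 92.7 ± 2.82% of the summed Dusp1, Dusp2 and Dusp5 values in PMN of treated mice and 94.6 ± 2.57% in PMN of vehicle mice, after the log2 was reversed (SD; n = 4 and 3). In monocytes it made up 51.1 ± 14.1% in treated and 69.3 ± 11.0% in vehicle mice (n = 4 and 3). Dusp2 took most of the remainder in monocytes, with 39.5 ± 14.1% in treated and 23.2 ± 8.07% in vehicle mice. The 3 phosphatases thus stood in different proportions in each cell type.

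Zfp36 (tristetraprolin), the founding member of its family, had the highest mean of the members in PMN, with 10.80, 10.61, 10.50 and 10.93 in treated and 10.53, 10.91 and 10.88 in vehicle mice. Monocyte values were 8.81, 8.71, 8.09 and 8.72 in treated and 8.40, 8.13 and 8.90 in vehicle mice. No monocyte library reached the PMN range. The gap was 2.13 ± 0.19 in treated mice (4.37-fold, adjusted p = 1.209e-06) and 2.30 ± 0.22 in vehicle mice (4.92-fold, adjusted p = 4.45e-06).

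Zfp36l1, a relative known for roles in lymphocyte development and quiescence, had 8.14, 8.41, 9.0 and 8.10 in PMN of treated and 8.05, 8.81 and 8.22 in PMN of vehicle mice. Its monocyte values were 6.67, 5.63, 6.04 and 5.48 in treated and 5.23, 5.63 and 5.58 in vehicle mice. PMN lay above monocytes throughout, by 2.46 ± 0.27 in treated mice (5.50-fold, adjusted p = 5.537e-06) and by 2.88 ± 0.31 in vehicle mice (7.36-fold, adjusted p = 9.652e-06). These values carry a limit: Gm26669, a lincRNA of the opposite strand (chr12:80108034-80113000, GRCm38), lies wholly inside Zfp36l1 (chr12:80107754-80113013) and had nearly the same profile (Pearson r = 0.999 over the 14 sorted-cell libraries and 0.951 over the 12 tumours, the highest of any gene in each set). Gm26669 stood 0.72 to 1.16 below Zfp36l1 in every sorted-cell library. Whether the counting used strand is not given in the sources used here, so reads of the pair cannot be told apart.

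Zfp36l2, the third family member, ran nearly level, with 10.11, 9.61, 10.36 and 10.36 in PMN of treated and 10.22, 9.70 and 10.14 in PMN of vehicle mice. Monocytes had 9.41, 9.88, 9.67 and 9.78 in treated and 9.38, 8.80 and 10.21 in vehicle mice, so the ranges overlapped. The difference of 0.43 ± 0.27 in treated mice and 0.56 ± 0.31 in vehicle mice did not pass (adjusted p = 0.168 and 0.1328), with 95% intervals of −0.15 to 1.0 and −0.11 to 1.22. Without monocyte vehicle library 3 the vehicle difference was 0.93 and passed (adjusted p = 0.00766).

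Within the Zfp36 family the leading transcript differed by cell type. Zfp36 made up 53.4 ± 6.25% of the family's summed value in PMN of treated mice and 55.8 ± 4.89% in PMN of vehicle mice, against 30.3 ± 5.32% and 32.2 ± 4.13% in monocytes of treated and vehicle mice (SD). Zfp36l2 led in monocytes, with 64.5 ± 6.59% in treated and 63.6 ± 5.93% in vehicle mice. Its share in PMN was 35.3 ± 4.62% in treated and 33.5 ± 7.28% in vehicle mice. Shares of Zfp36 in individual libraries ran from 44.2 to 59.9% in PMN and from 23.6 to 36.5% in monocytes, without overlap.

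**Figure D1:**
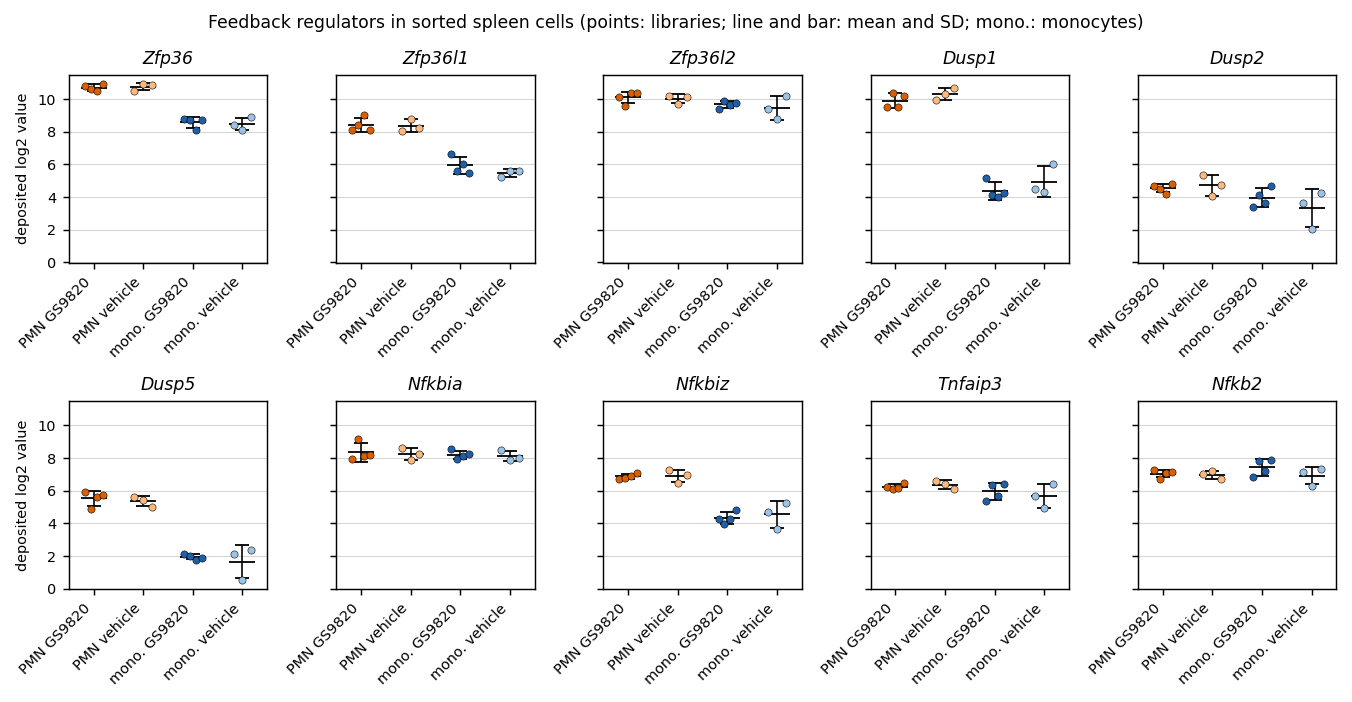
Deposited log2 values of the 10 genes (vertical axis) in PMN and monocytes of GS9820-treated and vehicle mice; points are libraries, the horizontal line and bar are the mean and SD. In Dusp1, Dusp5, Nfkbiz, Zfp36 and Zfp36l1 all 7 PMN libraries lie above all 7 monocyte libraries, while Nfkbia, Nfkb2, Tnfaip3 and Zfp36l2 overlap.

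Of the NF-kB feedback genes, Nfkbiz differed between the cell types and the other members did not pass. Nfkbiz encodes IκBζ, a nuclear protein needed for a second wave of NF-kB targets. Its values were 6.75, 6.79, 6.92 and 7.10 in PMN of treated and 7.26, 6.48 and 6.98 in PMN of vehicle mice. Monocytes had 4.29, 3.95, 4.30 and 4.80 in treated and 4.71, 3.68 and 5.26 in vehicle mice. PMN were higher without overlap, by 2.56 ± 0.29 in treated mice (5.88-fold, adjusted p = 7.229e-06) and by 2.35 ± 0.34 in vehicle mice (5.11-fold, adjusted p = 7.55e-05).

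Nfkbia, which encodes the classical inhibitor IκBα, had 7.94, 9.17, 8.10 and 8.17 in PMN of treated and 8.63, 7.88 and 8.25 in PMN of vehicle mice. Monocytes had 8.53, 7.92, 8.14 and 8.24 in treated and 8.51, 7.91 and 8.01 in vehicle mice. All 4 groups covered the same range apart from 1 treated PMN library at 9.17. The difference was 0.14 ± 0.26 in treated and 0.11 ± 0.30 in vehicle mice (adjusted p = 0.6454 and 0.7687). Its 95% interval of −0.42 to 0.70 in treated and −0.54 to 0.76 in vehicle mice contains none of the gaps seen for Dusp1, Dusp5, Nfkbiz, Zfp36 or Zfp36l1.

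Tnfaip3 encodes A20, an enzyme that edits ubiquitin chains on signalling proteins upstream of NF-kB. It had 6.24, 6.12, 6.16 and 6.49 in PMN of treated and 6.61, 6.42 and 6.10 in PMN of vehicle mice, against 5.39, 6.37, 5.70 and 6.42 in monocytes of treated and 5.68, 4.94 and 6.39 in monocytes of vehicle mice. Monocyte libraries were spread more widely and overlapped the PMN range. The difference was 0.28 ± 0.29 in treated and 0.71 ± 0.33 in vehicle mice (adjusted p = 0.3993 and 0.0849), and without monocyte vehicle library 3 the vehicle difference was 1.07 and passed (adjusted p = 0.00979).

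Nfkb2, the precursor p100 that restrains the non-canonical pathway and is processed to the p52 subunit, had 7.26, 6.73, 7.07 and 7.14 in PMN of treated and 7.02, 7.21 and 6.72 in PMN of vehicle mice. Monocytes had 6.82, 7.80, 7.19 and 7.91 in treated and 7.13, 6.32 and 7.34 in vehicle mice. It was the only member with a lower mean in PMN than in monocytes, and only in treated mice. The difference of −0.38 ± 0.26 there and 0.06 ± 0.30 in vehicle mice did not pass (adjusted p = 0.2076 and 0.8809). Nfkb2 overlaps part of Psd, a measured gene of the opposite strand, whose part in these values was not tested.

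Ordered by mean level in PMN of treated mice (log2 per gene length), Zfp36 came first at 10.7, followed by Zfp36l2 at 10.1, Dusp1 at 9.90, Zfp36l1 at 8.41, Nfkbia at 8.35, Nfkb2 at 7.05, Nfkbiz at 6.89, Tnfaip3 at 6.25, Dusp5 at 5.54 and Dusp2 at 4.54. In monocytes of treated mice the order was Zfp36l2 at 9.69, Zfp36 at 8.58, Nfkbia at 8.21, Nfkb2 at 7.43, Tnfaip3 at 5.97, Zfp36l1 at 5.95, Dusp1 at 4.39, Nfkbiz at 4.33, Dusp2 at 3.97 and Dusp5 at 1.96. Neighbours whose ranges overlapped were Zfp36l2 and Dusp1, Zfp36l1 and Nfkbia, and Nfkb2 and Nfkbiz in these PMN. In these monocytes they were Zfp36 and Nfkbia, Tnfaip3 and Zfp36l1, Dusp1 and Nfkbiz, and Nfkbiz and Dusp2. Dusp1 thus stood above Zfp36l1 in PMN and just above Nfkbiz in monocytes.

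**Figure D2:**
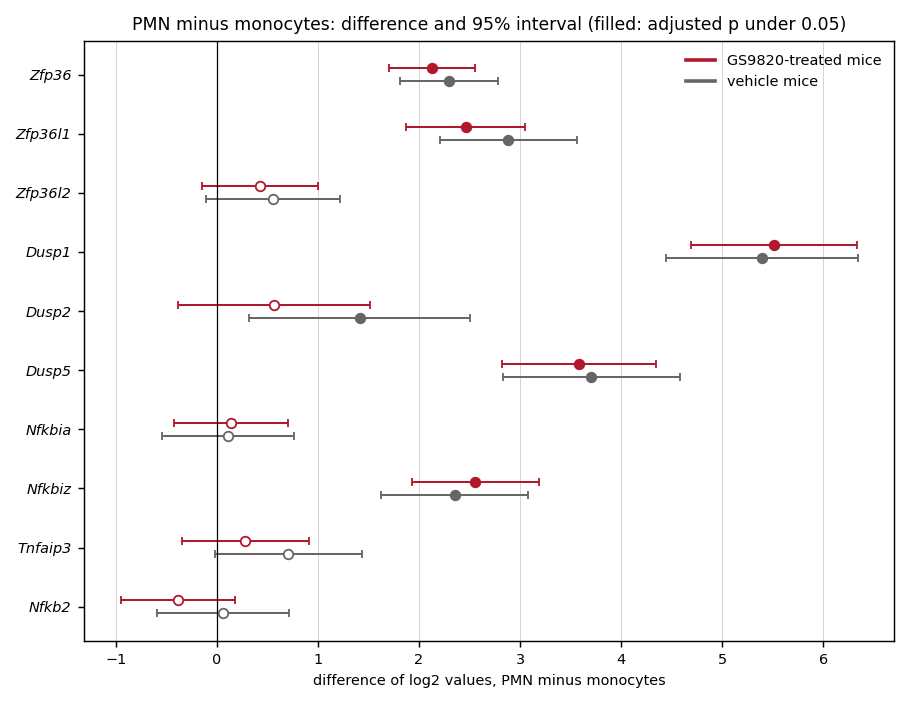
Difference of log2 values, PMN minus monocytes (horizontal axis), for each gene in GS9820-treated mice (upper line of each pair) and vehicle mice (lower line); bars are 95% intervals and filled points have an adjusted p under 0.05. Dusp1 is farthest right, at 5.51 in treated and 5.39 in vehicle mice, and Dusp2 is filled in vehicle mice only.

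Markers of the sorted cells bear on these comparisons. The 13 neutrophil markers averaged 11.97 to 12.35 in the PMN libraries and 8.24 to 10.8 in the monocyte libraries, and the 12 monocyte markers averaged 5.83 to 6.74 in PMN and 7.75 to 9.58 in monocytes. Ccr2 had medians of 7.93 in PMN of treated and 7.10 in PMN of vehicle mice, against 11.5 in monocytes of treated and 10.9 in monocytes of vehicle mice. Ly6c2 lay closer, at 9.49 to 10.63 in PMN and 10.81 to 11.55 in monocytes. Csf1r overlapped between the cell types (8.04 to 9.07 in PMN and 8.67 to 10.62 in monocytes). The monocyte libraries also carried the granule transcripts Ngp (12.4 to 13.7) and Camp (11.34 to 13.02) near the PMN level, and Cxcr2 at 4.93 to 8.22, against 11.96 to 12.40 in PMN. Vehicle monocyte library 3 had the lowest neutrophil marker mean (8.24) and the highest monocyte marker mean (9.58) of all monocyte libraries. All members but Nfkbia and Zfp36l1 were higher in it than in the other vehicle monocytes. Markers of other cell types also separated the sorted cells. B cell markers (9 genes) averaged 3.95 to 4.68 in the PMN libraries and 1.83 to 3.24 in the monocyte libraries, and the 5 measured eosinophil markers averaged 2.0 to 5.07 in PMN and −0.81 to 1.20 in monocytes, both without overlap. Siglecf, a surface lectin of eosinophils, averaged 6.64 in PMN and 2.75 in monocytes of treated mice, and 6.45 in PMN and 3.29 in monocytes of vehicle mice. Macrophage markers averaged up to 6.26 in PMN and 4.63 in monocytes, and erythroid markers were highest in the vehicle libraries numbered 2, at 7.10 in PMN and 6.23 in monocytes. The part of such admixture in the members' values was not tested beyond leaving libraries out. Without both vehicle libraries numbered 2, the count of members that passed in vehicle mice was again 6.

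Other genes of these pathways were listed for comparison, also with earlier results of these data known. Their counts are set against the share of all genes higher in PMN of vehicle mice (27.2%) and lower there (32.8%). In treated mice these shares were 32.1% and 37.6%. Of 24 other NF-kB inhibitors and feedback genes, 17 rose and 2 fell in PMN of treated mice (median difference 0.71), and 16 rose and 0 fell in PMN of vehicle mice (0.90). In vehicle mice they included Socs3, an inhibitor of cytokine receptor signalling (3.42 ± 0.28), Rnf11, a partner of A20 (2.78 ± 0.15), the NF-kB repressor N4bp1 (1.32 ± 0.12) and Pdlim2 (1.88 ± 0.24), a ligase that targets p65. The transcription machinery itself was divided: of 14 NF-kB subunits and activating kinases 3 rose and 5 fell in treated mice, and 4 rose and 4 fell in vehicle mice. Among these, in vehicle mice, the p65 gene Rela rose by 0.56 ± 0.11, and the kinase genes Ikbke and Ikbkb fell by 1.66 ± 0.31 and 1.16 ± 0.29 on the log2 scale.

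For the phosphatases, 8 of 11 other dual specificity phosphatases were measured in sorted cells, of which 2 rose and 3 fell in PMN of treated mice, and 2 rose and 2 fell in PMN of vehicle mice. In vehicle mice Dusp16, which acts on JNK, rose by 3.76 ± 0.25 and Dusp18 by 2.22 ± 0.52, whereas Dusp22 fell by 2.24 ± 0.46 and Dusp3, which acts on ERK and JNK, by 1.89 ± 0.47. Their median difference was −0.25 in treated and −0.12 in vehicle mice. Of 20 MAP kinases and their activators 6 rose and 8 fell in treated mice, and 4 rose and 6 fell in vehicle mice, among the last Map3k8 (1.86 ± 0.27), the kinase that links NF-kB signalling to ERK, and Map2k6 (−2.0 ± 0.36), an activator of p38.

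Among mRNAs known from other work to be bound by Zfp36, 14 of 22 were measured in sorted cells, with 11 higher and 0 lower in PMN of treated mice (median difference 1.46), and 10 higher and 0 lower in PMN of vehicle mice (1.41). In vehicle mice the inflammatory cytokine gene Il1b was 6.76 ± 0.61 higher (adjusted p = 2.679e-06), the early response gene Ier3 3.69 ± 0.47 and the survival gene Mcl1 1.56 ± 0.27. Ptgs2, which encodes the prostaglandin synthase COX-2, was 4.41 ± 0.75 higher from a low level (2.38 in PMN and −2.03 in monocytes). Zfp36 and these named mRNAs were higher in the same cell type. A gene was kept with a log2 value of 0 or above in 3 libraries. Ptgs2 could therefore have entered through PMN alone, and such a gene could count only as higher there. The counts of this list are thus descriptive. Ier3 also stands in the list of NF-kB feedback genes.

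The CCR4-NOT complex and other decay factors, the machinery that Zfp36 proteins recruit, were divided. Of 26 genes 7 were higher and 8 lower in PMN of treated mice (median difference 0.06), and 8 were higher and 7 lower in PMN of vehicle mice (0.05). In vehicle mice the deadenylase partners Tob1 (2.99 ± 0.32) and Btg1 (2.40 ± 0.22) rose, as did the RNA-binding protein gene Rc3h2 (1.61 ± 0.17), and Hnrnpd, which encodes another AU-rich element binding protein, fell by 1.23 ± 0.12. Of 19 tested immediate early genes 15 rose and 1 fell in treated mice (median difference 1.63), and 13 rose and 2 fell in vehicle mice (1.73), among the last Jund (2.84 ± 0.31), Junb (2.69 ± 0.26), Fosl2 (2.12 ± 0.23) and Klf6 (1.83 ± 0.16). Of 16 tested glucocorticoid-induced genes 8 rose and 1 fell in treated mice, and 7 rose and 0 fell in vehicle mice, the last including Tgm2 (4.02 ± 0.35), Sgk1 (2.30 ± 0.24), Errfi1 (1.52 ± 0.25) and Tle3 (1.17 ± 0.17). Of 9 tested genes of class I PI3 kinase subunits and the adaptor Pik3ap1, 6 rose and 0 fell in treated and 4 rose and 0 fell in vehicle mice, while Pik3cd, the target of GS9820, did not pass (0.34 ± 0.19 in treated and 0.49 ± 0.22 in vehicle mice).

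**Figure D3:**
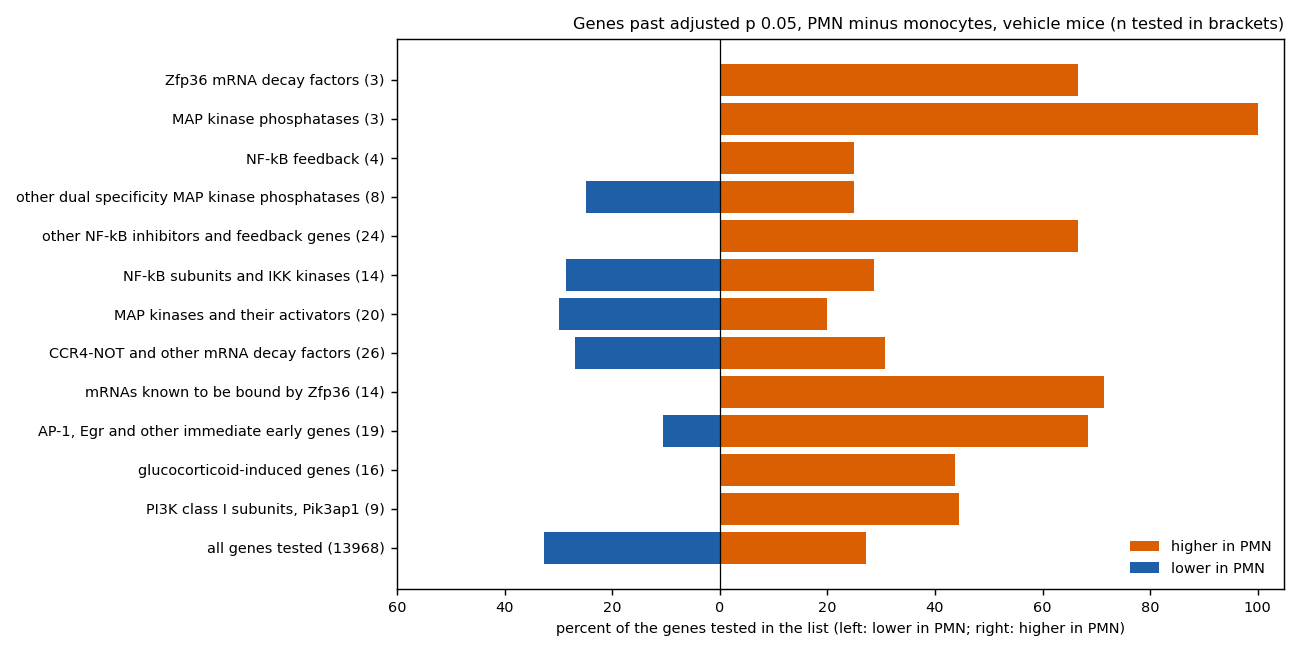
Percent of the tested genes of each list that were higher (right) or lower (left) in PMN than in monocytes of vehicle mice at an adjusted p under 0.05; the lists are rows, with the number tested in brackets, and all genes tested are the bottom row. Other NF-kB feedback genes (16 of 24 higher) and mRNAs bound by Zfp36 (10 of 14 higher) extend right with no bar to the left, while NF-kB subunits (4 higher, 4 lower) run both ways.

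Genes with the most similar profile over the 14 sorted-cell libraries were Smap2, Ing4 and Fam120b for Zfp36 (Pearson r = 0.992 to 0.991) and Zswim4, 2810002D19Rik and Ing4 for Dusp1 (r = 0.992 to 0.989). Such values largely restate the gap between the cell types. For Nfkbia, which has no such gap, the closest were Traf3ip3, Per1 and Ddit4 (r = 0.819 to 0.781), and for Tnfaip3 they were Stard3, Ehbp1l1 and Relb (r = 0.946 to 0.927). After Gm26669, Sema6b and Gm18588 came closest to Zfp36l1 (r = 0.985 for each).

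GS9820 treatment left no called change in any of the 10 genes in either sorted cell type. In PMN, treated minus vehicle, 0 members passed, as did 0% of all genes, and 0 members had an unadjusted p under 0.05, against 430 genes in all (3.08%). In monocytes 0 members and 0% of all genes passed, with 0 members and 335 genes (2.40%) at an unadjusted p under 0.05. The treatment effects of the 2 cell types did not differ for any member (0 passed, and 0 at an unadjusted p under 0.05, against 269 genes or 1.93%). These were limma tests of 4 against 3 libraries.

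Member by member, treated and vehicle libraries overlapped for every gene in both cell types, while they did not for 3.77% of all genes in PMN and 3.37% in monocytes. Dusp1 had the lowest difference in each, −0.43 ± 0.41 in PMN (9.90 in treated and 10.3 in vehicle mice) and −0.55 ± 0.41 in monocytes (4.39 in treated and 4.94 in vehicle mice). In monocytes Dusp2 was 0.65 ± 0.47 higher, Nfkb2 0.50 ± 0.28 and Zfp36l1 0.47 ± 0.29, with adjusted p = 0.9955 for each. For Zfp36 the 95% interval was −0.52 to 0.39 in PMN and −0.35 to 0.56 in monocytes. Dusp2 had the widest interval, −1.22 to 0.83 in PMN and −0.37 to 1.68 in monocytes. The median over the members was 0.02 in PMN and 0.26 in monocytes, against 0.00 and −0.02 over all genes tested.

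In tumours Zfp36 rose with treatment and was the only member to pass, 1 of 10, where 2.20% of all 16296 genes passed in either direction and 0.878% were higher. The 5 treated tumours had 6.77, 5.50, 6.53, 6.08 and 6.05, and the 7 vehicle tumours ran from 4.40 through a median of 5.22 to 5.42. Every treated tumour lay above every vehicle tumour, as was so of 0.951% of all genes in this direction. The difference was 1.16 ± 0.25 (2.23-fold, 95% interval 0.61 to 1.71, adjusted p = 0.03801). In a whole tumour, a larger number of cells that express a gene and more RNA per cell cannot be told apart.

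The size of the Zfp36 difference changed little under other settings, but the call held in only 11 of 24 of them. Leaving out 1 tumour at a time gave 1.01 to 1.33, and it passed in 2 of 12 such fits, those without vehicle tumour 5 or 6, with adjusted p of 0.0530 to 0.1095 in the other 10. Treated tumours 1 and 3, with the highest Zfp36, also had the highest hepatocyte marker means (6.40 and 11.6, against 2.61 to 3.25 in the other treated and 0.76 to 6.20 in the vehicle tumours). Without both, the difference was 0.85 (adjusted p = 0.1003). Acinar markers averaged 6.08 to 10.3 in treated and 3.06 to 10.2 in vehicle tumours, and with that mean in the model the Zfp36 difference was 1.17 (adjusted p = 0.1394). Other marker means were also higher in treated tumours by their medians: islet markers 6.61 in treated and 2.20 in vehicle tumours, and adipocyte markers 4.40 in treated and 0.64 in vehicle tumours. Dendritic cell and class II markers had medians of 6.39 in treated and 4.81 in vehicle tumours, and endothelial markers of 5.80 in treated and 5.0 in vehicle tumours. T and NK cell markers had 3.37 in treated and 1.68 in vehicle tumours, and B cell markers 2.33 in treated and 0.94 in vehicle tumours. Medians of the macrophage, monocyte, fibroblast, erythroid and epithelial lists were also higher in treated tumours. Those of the neutrophil, eosinophil and mast cell lists were lower. The eosinophil list rested on 1 measured gene (2.74 in treated and 2.84 in vehicle tumours). The mast cell list rested on 2 (3.51 in treated and 3.72 in vehicle tumours). All these lists had overlapping ranges. Apart from the neutrophil mean as a covariate, their part in the Zfp36 difference was not tested. Among the genes most like Zfp36 over the 12 tumours were Phyh and Gm13910 (Pearson r = 0.950 and 0.912).

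Zfp36 stayed the smallest of its family in tumours, at 12.4 ± 6.93% of the family's summed value in treated and 6.16 ± 1.69% in vehicle tumours (SD; n = 5 and 7). Zfp36l2 and Zfp36l1 supplied the rest. Zfp36l1 had 7.14, 8.50, 8.35, 8.01 and 8.12 in treated tumours, and 7.41, a median of 7.51 and 8.51 in vehicle tumours. Treated tumours included both a value below all vehicle tumours and 1 just under the highest of them, and the difference of 0.31 ± 0.26 did not pass (adjusted p = 0.482). Zfp36l2 had 7.64, 8.20, 8.55, 8.61 and 8.29 in treated tumours, against 7.86, a median of 8.23 and 8.49 in vehicle tumours. It was the most even of the 3 between treatments (0.05 ± 0.18, 95% interval −0.34 to 0.45).

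**Figure D4:**
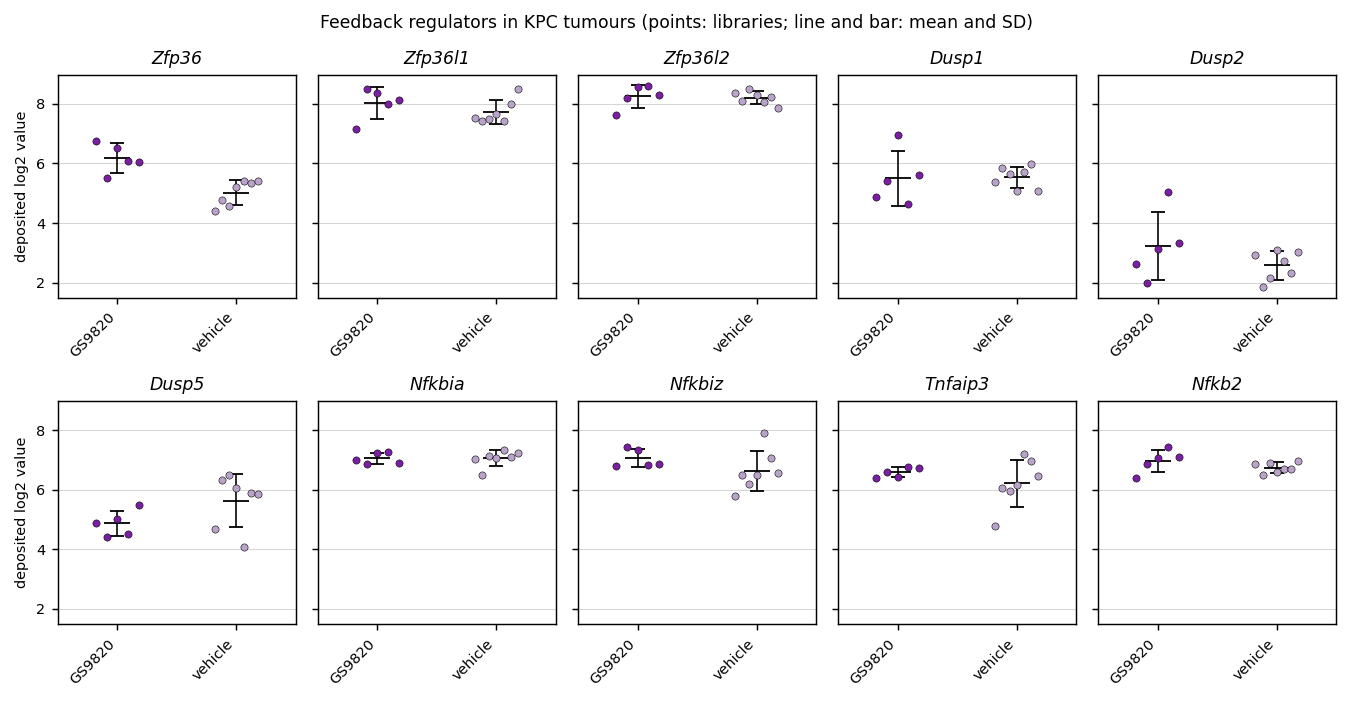
Deposited log2 values of the 10 genes (vertical axis) in 5 GS9820-treated and 7 vehicle tumours; points are libraries, the horizontal line and bar are the mean and SD. Zfp36 is the only gene whose groups do not overlap, with 5.50 to 6.77 in treated and 4.40 to 5.42 in vehicle tumours.

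The phosphatases varied widely between tumours of 1 treatment, and none of the 3 passed. Dusp5 had 4.90, 4.41, 5.02, 4.53 and 5.50 in treated tumours, against 4.08, a median of 5.89 and 6.49 in vehicle tumours. Most vehicle tumours were above the treated ones, but vehicle tumours 1 and 5 (4.70 and 4.08) lay among or below them, and the difference of −0.76 ± 0.40 did not pass (adjusted p = 0.259). Dusp1 had 4.86, 5.41, 6.97, 4.64 and 5.60 in treated tumours, against 5.06, a median of 5.63 and 5.99 in vehicle tumours. The lowest and the highest Dusp1 values were both in treated tumours, and the means differed by −0.04 ± 0.35.

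Dusp2 had 2.64, 1.99, 3.14, 5.05 and 3.32 in treated tumours, against 1.84, a median of 2.73 and 3.09 in vehicle tumours. Treated tumour 4 stood alone at 5.05, and it also had the highest means of the B cell markers (5.80) and of the T and NK cell markers (5.27) of the 12 tumours. The difference of 0.64 ± 0.45 did not pass (adjusted p = 0.3964), and without that tumour it was 0.18. The part of lymphocytes in it was not tested.

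Of the NF-kB feedback genes in tumours, Nfkbiz had 6.81, 7.43, 7.33, 6.83 and 6.86 in treated and 5.80, a median of 6.49 and 7.89 in vehicle tumours (difference 0.41 ± 0.30, adjusted p = 0.4223). Tnfaip3 had 6.41, 6.58, 6.42, 6.77 and 6.73 in treated and 4.78, a median of 6.16 and 7.19 in vehicle tumours (0.36 ± 0.33, adjusted p = 0.5276). For both genes the vehicle tumours were more widely spread than the treated ones, with vehicle tumour 1 lowest and vehicle tumour 5 highest. Vehicle tumour 1 had the lowest mean of the epithelial markers (4.58, against 7.62 to 9.51 in the other 11), and vehicle tumour 5 had the highest mean of the neutrophil markers (7.20, against 2.39 to 4.83). With the neutrophil mean in the model, a setting chosen after seeing the data, Nfkbiz passed (0.72, adjusted p = 0.0463, limma). That setting raised the number of all genes that passed from 359 to 1177. The part of neutrophils in the Nfkbiz values was not tested otherwise.

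Nfkbia had 7.0, 6.85, 7.24, 7.27 and 6.89 in treated tumours, against 6.49, a median of 7.10 and 7.35 in vehicle tumours (difference −0.01 ± 0.16, 95% interval −0.35 to 0.34). Nfkb2 had 6.40, 6.85, 7.05, 7.42 and 7.11 in treated tumours, against 6.48, a median of 6.70 and 6.97 in vehicle tumours (0.22 ± 0.17, adjusted p = 0.4466). Both varied little between tumours. By mean level Zfp36l2 and Zfp36l1 led the 10 genes and Dusp2 came last in treated and in vehicle tumours, and Zfp36 stood above Dusp1 and Dusp5 in treated but below both in vehicle tumours, with ranges that overlapped those of its neighbours in all cases but Dusp2 in vehicle tumours. Genes with the most similar profile over the 12 tumours were Lama3, Ehf and Celsr1 for Tnfaip3 (Pearson r = 0.958 to 0.954), Aqp9, Rab20 and Lcat for Dusp1 (r = 0.844 to 0.820), Sh2d3c, Erg28 and Mterf1a for Nfkbia (r = 0.826 to 0.781) and, after Gm26669, Cd209a and Ttc9c for Zfp36l1 (r = 0.880 and 0.872).

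**Figure D5:**
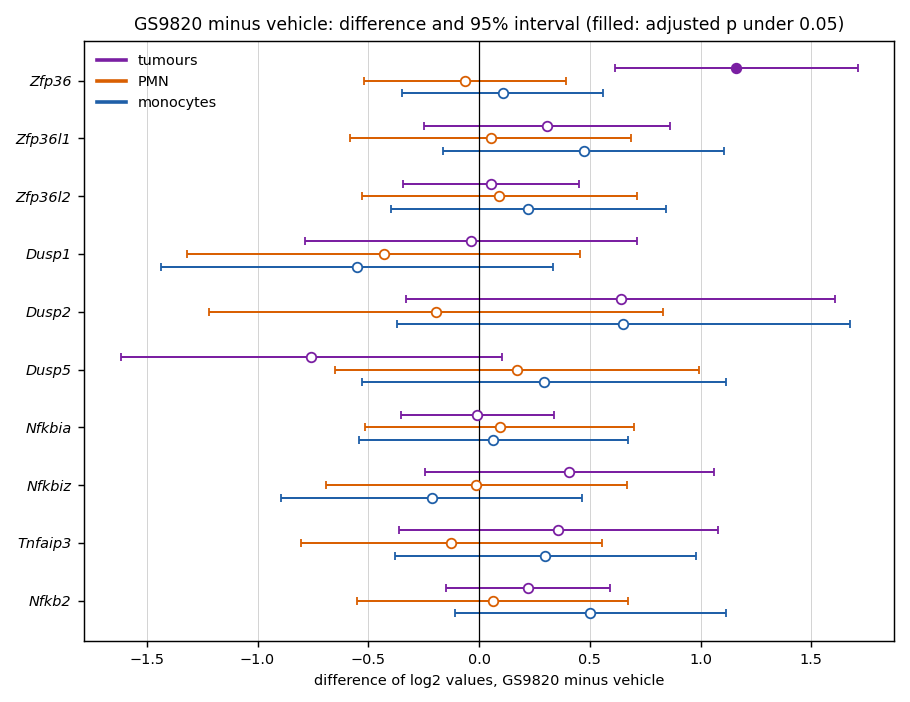
Difference of log2 values, GS9820 minus vehicle (horizontal axis), for each gene in tumours, PMN and monocytes (top to bottom within a gene); bars are 95% intervals and filled points have an adjusted p under 0.05. The Zfp36 point of tumours, at 1.16, is the only filled one.

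Few related genes passed in tumours, and none of all genes passed without treated tumour 4 (0 genes) or with the acinar marker mean in the model (0 genes), so each call below is lost under both settings. Of 11 other dual specificity phosphatases 2 fell and 0 rose, against 1.33% of all genes lower: Dusp4, a nuclear phosphatase induced by ERK signalling, by 1.42 ± 0.26 (adjusted p = 0.02388) and Dusp18 by 1.13 ± 0.27 (adjusted p = 0.04925). Of 18 measured mRNAs bound by Zfp36, 1 fell and 0 rose: the neutrophil chemokine gene Cxcl3, at −1.20 in treated and 2.97 in vehicle tumours (difference −4.17 ± 0.70, adjusted p = 0.0189). Its treated mean lay below the filter's log2 minimum of 0, and 5 tumours sufficed to keep a gene. Cxcl3 could thus have been kept through vehicle tumours alone, and the size of its difference rests on very low values. The median difference over the 18 mRNAs was −0.39, against −0.06 over all genes. Map2k6 fell by 1.26 ± 0.28, Maff, a small Maf factor listed with the immediate early genes, by 1.31 ± 0.28, and the glucocorticoid-induced annexin gene Anxa1 by 1.19 ± 0.22. None of the 24 other NF-kB feedback genes, 14 NF-kB subunits and kinases, 26 decay factors or 10 PI3 kinase genes passed in tumours. The genes of smallest p in these lists differed in both directions. Birc3, an NF-kB target that encodes an inhibitor of apoptosis, differed by 0.71 ± 0.22 (adjusted p = 0.09278) and Otud7b, a deubiquitinase gene, by −0.56 ± 0.25 (adjusted p = 0.1925). The kinase gene Tbk1 differed by 0.62 ± 0.21 (adjusted p = 0.1085) and Relb by 0.58 ± 0.20 (adjusted p = 0.1188). Btg2 and Pan2, of the decay factors, differed by 0.89 ± 0.33 and 0.62 ± 0.25, and the PI3 kinase genes Pik3r1 and Pik3r2 by 0.56 ± 0.24 and −0.59 ± 0.28 (adjusted p = 0.1316, 0.1578, 0.1760 and 0.2180, in that order).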

How the data were processed

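The authors deposited 1 log2 value per gene and library, named log2 RPKM per the file headers, and per the submitters' processing notes TopHat2, STAR, limma and the build mm10 were used, with neither versions nor roles given. Values are forced to nearly 1 distribution within each set (12 tumour and 14 sorted-cell libraries), so depth is unknown and no count test was run. Per the labels' protocols, tumour libraries were stranded and depleted of ribosomal RNA, while sorted-cell libraries came from either of 2 kits, which one per library not being given. X- and Y-linked genes were not analysed here.

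Gene identifiers were matched to symbols and positions in GENCODE M21 (GRCm38), which gave all 10 members. A gene was kept where 5 or more tumours, or 3 or more sorted-cell libraries, had a log2 value of 0 or above (16296 and 13968 genes). Within each set 1 model was fitted with limma 3.58.1 in R 4.3.3 (group means, contrasts, eBayes with trend, two-sided), with Benjamini-Hochberg adjustment over all genes tested in each of 6 comparisons and a threshold of 0.05. Errors beside differences are SE, and those beside levels and shares are SD. The procedure was run on simulated data with known folds and independent noise, and the shares it recovered are not reported here. No 2 libraries held identical values (0 pairs). Pathway and marker lists, 168 and 158 entries, were drawn from general knowledge. From each pathway list the text names no more than 4 genes, taken by p among those that passed, or 2 by p where none passed, and beside 5 members the 3 genes of most similar profile are named. Of the genes so selected, 1 is not reported here. Members and lists were chosen with earlier results of these data known. Alternatives were other filters, log2 of the value plus 1, quantile normalization, median centring, eBayes without trend or robust, array weights, a block by replicate number, only the groups compared, marker means as covariates, and leaving libraries out. Those with marker means or with several libraries left out were chosen after seeing the data. Figures were drawn with matplotlib 3.10.9.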

Additional observations from a re-analysis of the deposited data

Results flagged for a closer look

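In 2 of 40 groups of 4 to 10 libraries tested, 1 library stood far from the others of its group for a member, where chance alone gives about 1 in 20. Zfp36 in treated monocyte library 3 was 8.09, against 8.71 to 8.81 in the other treated monocyte libraries. Nfkbia in vehicle tumour 2 was 6.49, against 7.03 to 7.35 in the other vehicle tumours. Vehicle monocytes ran from 8.13 to 8.90 for Zfp36, and treated tumours from 6.85 to 7.27 for Nfkbia.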

How the results depend on the processing

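The 12 differences of members that passed gave 294 values under the alternatives, all 294 of the same sign, of which 17 no longer passed. Of 1460 values of all members, 4 gained the threshold and 80 changed sign, and of the 80 none (0) passed in either fit. In tumours the count of members past the threshold, 1 as reported, was 0 with the replicate block, 0 without treated tumours 1 and 3 and 0 with the acinar marker mean in the model, and 2 with the neutrophil marker mean (Zfp36 and Nfkbiz). Leaving out 1 tumour at a time gave 0 to 1. With the replicate block the Zfp36 difference was 1.30 (adjusted p = 0.1149, limma). Deviations from the group means of same-numbered treated and vehicle libraries correlated at −0.438 to 0.263. For same-numbered PMN and monocyte libraries of 1 treatment the correlations were −0.223 to 0.457. There the closest monocyte library had the same number for PMN vehicle libraries 1, 2 and 3 and PMN treated libraries 3 and 4, but not for PMN treated libraries 1 and 2. The labels do not say whether a number marks an animal, so the main fits have no block. The block changed no other member's call. In PMN against monocytes, Zfp36l2 of treated mice passed with array weights (0.48, adjusted p = 0.0204, limma). All tumour genes past the threshold numbered 359, against 166 with the block, 2764 with array weights, 0 with the acinar mean, 1177 with the neutrophil mean and 0 to 1690 with 1 tumour left out. The weights had not converged in 5 fits. Depth is unknown, so no limit of detection can be given for Dusp5 or Dusp2 in monocytes, the lowest members.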
